A study of Homo sapiens with 12 samples.

Results

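The genes described here are BHLHE40 and 9 genes of the circadian clock, taken as the rows of both deposited tables whose gene symbol was BHLHE40, BHLHE41, CLOCK, PER1, PER2, CRY1, CRY2, NR1D1, NR1D2 or DBP. All 10 were found, each in 1 row of the 62703 genes of each table, and all 10 passed the filter on low counts in both lines. The set was chosen by the fall of BHLHE40 in the Hep3B knockdown, with the clock genes named beside it, so the Hep3B knockdown values of these genes are given as levels and log2 changes, with no p-value. Huh7 and Hep3B are established human hepatocellular carcinoma lines, and each carried the control hairpin shNC or the hairpin shSLC6A8 against the creatine transporter SLC6A8. Every one of the 12 libraries, 3 in each of the 4 groups, came from cells kept in hypoxia for 24 hours, controls included, so no comparison with normoxia was made. The labels give neither the time of day of harvest nor any synchronisation of the cells, and at a single time a change of level and a shift of clock phase cannot be told apart. They leave unsaid whether the 3 libraries of a group came from separate cultures. A p-value below therefore speaks of differences beyond the scatter of these libraries, and that scatter may be technical.

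In the mammalian clock, CLOCK pairs with BMAL1 and switches on genes that carry the DNA motif called the E-box, among them the PER and CRY genes. PER and CRY proteins then repress the CLOCK and BMAL1 pair, which closes a loop of about a day. The nuclear receptors NR1D1 and NR1D2 (REV-ERB alpha and beta) repress the BMAL1 gene, and DBP carries the rhythm to output genes through a further motif, the D-box. BHLHE40 and BHLHE41 (DEC1 and DEC2) bind E-boxes as repressors and so oppose CLOCK and BMAL1. BHLHE40 is also switched on in low oxygen by hypoxia-inducible factor (HIF), whose response element holds the letters ACGTG or, in other genes, GCGTG. The liver clock times much of the organ's sugar and fat metabolism.

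The promoters of 4 of the 10 genes held a whole E-box, CACGTG, and the stretches that hold it are shown because the E-box is the motif that CLOCK and BHLHE40 share. The sequences are from RefSeq in GRCh38.p14, are read 5′ to 3′ on the strand of the gene, and lie upstream of a RefSeq start. That of NR1D2 precedes the second of its RefSeq starts, which lies inside the gene. For BHLHE40 and BHLHE41 only the E-box and its flanks are shown, and PER1 is cut short of its start, since GENCODE 29 begins these genes further upstream. Capitals mark every match, on either strand, to the E-box, to the ACGTG core or the GCGTG core of the HIF element, or to the D-box, searched as TTATGTAA and TTATGCAA. An E-box always contains ACGTG, on both strands, so these matches overlap.
BHLHE40, chr3:4979187-4979216, plus strand: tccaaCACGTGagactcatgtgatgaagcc
BHLHE41, chr12:26125068-26125097, minus strand: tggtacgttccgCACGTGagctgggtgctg
NR1D2, chr3:23945921-23946050, plus strand: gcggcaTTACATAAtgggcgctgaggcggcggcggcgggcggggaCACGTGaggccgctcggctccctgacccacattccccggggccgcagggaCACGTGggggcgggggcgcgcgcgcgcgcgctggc
PER1, chr17:8152436-8152594, minus strand: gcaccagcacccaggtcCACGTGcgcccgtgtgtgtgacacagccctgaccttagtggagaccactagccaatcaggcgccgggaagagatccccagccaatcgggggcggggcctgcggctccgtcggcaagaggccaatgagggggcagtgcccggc

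RefSeq listed 13 promoter windows for the 10 genes, each from 250 bases before to 50 after a start, among 35116 windows in all. The E-box began at -245 in BHLHE40, -48 in BHLHE41 and -173 in PER1, counted from the start site, and there were 2 in the window of the second NR1D2 start and 0 in that of the first. It was present in 4 of the 13 windows and in 7.26% of all windows. The D-box letters TTATGTAA or TTATGCAA, present in 1.71% of all windows, were found in PER1 at -30 and in NR1D2 at -194. The shorter letters ACGTG occurred in 10 of the 13 windows, from 9 genes, and in 21.4% of all windows. GCGTG occurred in 7 of the 13, from 7 genes, and in 36.5% of all. The REV-ERB element AGGTCA was found in 3 of the 13 windows, of CRY2 and PER1, and in 13.8% of all windows. The cyclic AMP element TGACGTCA was found in none of the 10 genes and in 1.85% of all windows. These matches describe the letters only, and no binding was measured.

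Library totals ran from 21065965 to 28078068 estimated counts. SLC6A8, the hairpin target, fell from 36.4 to 9.42 CPM (counts relative to library size, scaled by TMM within each line) in Huh7, a log2 change of -1.95 ± 0.09 (SE, n = 3 per group), and from 370.4 to 34.5 CPM in Hep3B, a change of -3.42 ± 0.05. It was lower in every knockdown library than in every control of its line. The hepatocyte marker ALB stood at 4613 CPM or more in every library, but not all markers of that list were abundant. Group means of TTR ran from 44.3 to 65.7 CPM, and FGB was at 38.4 and 26.0 CPM in Hep3B controls and knockdowns. Of the cholangiocyte markers, KRT19 and EPCAM were expressed in all groups, with means of 219.7 to 660 CPM and 166.2 to 482.3 CPM. KRT7 was at 3.89 and 1.09 CPM in Hep3B and too low to test in Huh7. The immune marker CD3E had at most 2 estimated counts in any library and PTPRC at most 19. The other immune markers of the list, LYZ and CD68, were expressed. Control and knockdown means of LYZ were 313 and 614 CPM in Huh7 and 354 and 170 CPM in Hep3B. Those of CD68 were 37.4 and 15.8 CPM in Huh7 and 66.2 and 23.4 CPM in Hep3B. In Huh7, 6 of 8 hepatocyte markers passed as higher and 1 as lower, and their sum moved from 10920 to 11360 CPM in controls to 14470 to 14810 CPM in knockdowns. In Hep3B, 1 of 8 passed as higher and 5 as lower, and the sum moved from 28940 to 30380 CPM to 16620 to 17680 CPM. Markers of other cell types passed as higher for 3 and lower for 4 of 10 measured in Huh7, and for 1 and 5 of 8 in Hep3B. Among all genes, 30.9% passed as higher and 31% as lower in Huh7, and 18.9% and 21.2% in Hep3B. The part of these shifts in the clock gene values was not tested, and in such bulk libraries fewer cells of a type and less RNA per cell cannot be told apart.

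In Huh7, 9 of the 10 genes passed the test between hairpins (edgeR quasi-likelihood test, adjusted p under 0.05 over 17022 genes), where 61.8% of all genes tested passed. BHLHE40 and BHLHE41 fell the most, PER1, CRY1, CRY2 and NR1D1 fell modestly, and PER2, DBP and CLOCK rose. The 3 higher genes stand against a background of 30.9% higher and the 6 lower genes against 31% lower. The median log2 change was -0.32 for the 10 genes and 0.00 for all genes tested.

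**Figure D1:**
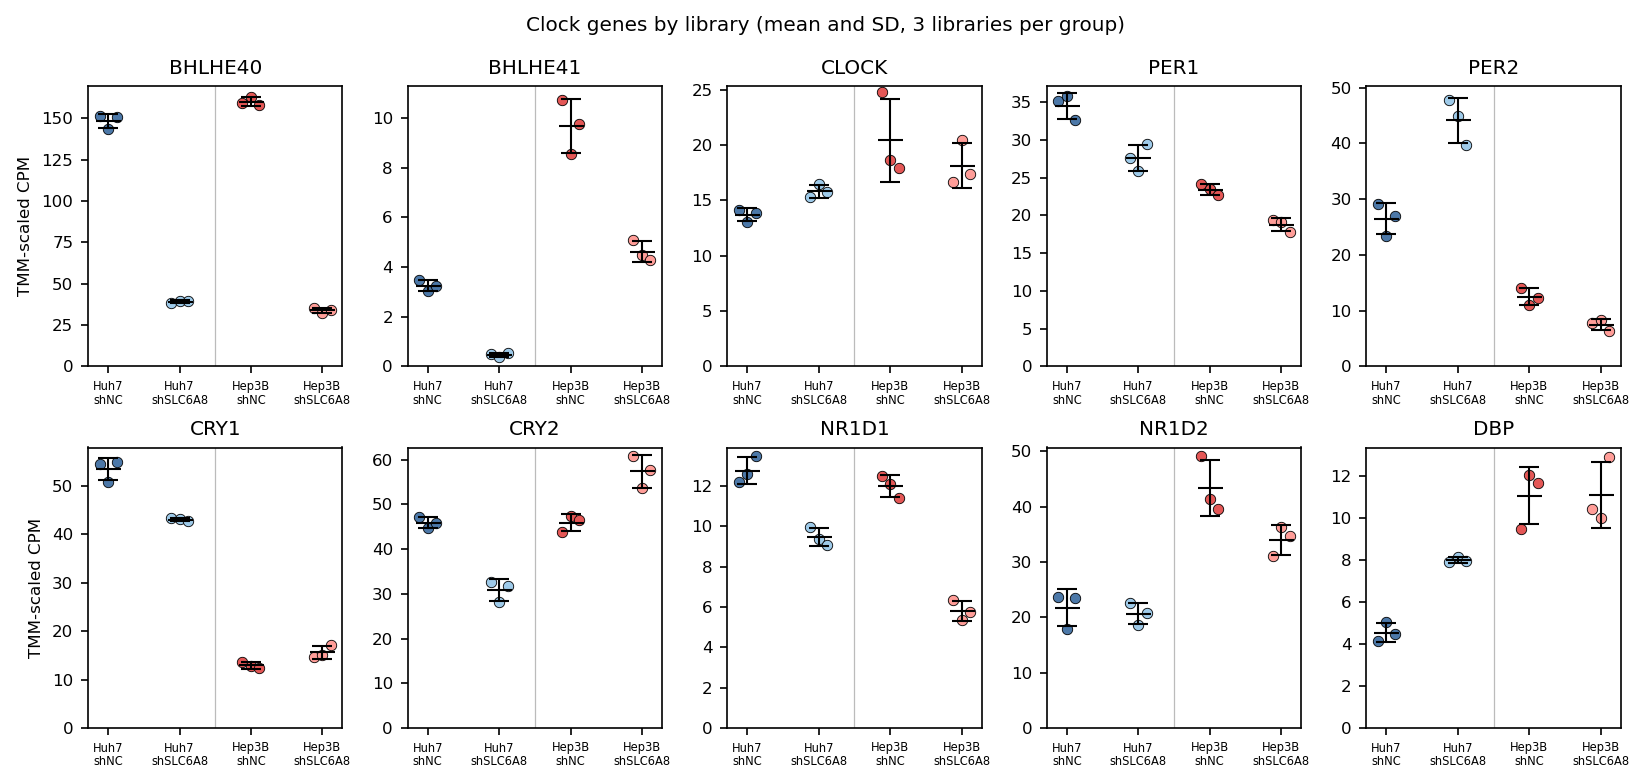
TMM-scaled CPM (linear axes from 0) of the 10 genes in each of the 12 libraries, with points for libraries and the mean ± SD of the 3 libraries of a group. BHLHE40 lies at 144 to 163 CPM in the controls of both lines and at 32.2 to 39.7 CPM in the knockdowns, while PER2, CRY1 and CRY2 lie on opposite sides of their controls in the 2 lines.

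BHLHE40 (ENSG00000134107, chromosome 3, 4979437 to 4985323), a transcriptional repressor and HIF target, stood at 151, 144 and 151 CPM in the 3 Huh7 control libraries and at 38.2, 39.6 and 39.7 CPM in the 3 knockdown libraries. The groups did not overlap, and the spread within each was small beside the gap between them. The log2 change was -1.92 ± 0.05 (edgeR adjusted p = 1.12e-14), or 3.79-fold lower. Among 13277 Huh7 genes with a mean log2 CPM of at least 1, 196 fell at least as far, which is 1.48%. In Hep3B, the contrast that chose the set, BHLHE40 stood at 159, 163 and 158 CPM in controls and at 35.3, 32.2 and 34.1 CPM in knockdowns. Its change there was -2.24 ± 0.05, or 4.72-fold lower. In the authors' deposited tables the log2 fold change of BHLHE40 was -1.92 in Huh7 and -2.24 in Hep3B. In Huh7 the authors marked BHLHE40 and BHLHE41 as significant and none of the other genes of the set. The criterion of that mark is not known here.

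BHLHE41 (chromosome 12), the close relative of BHLHE40 with the same E-box repressor role, was far scarcer. In Huh7 it read 3.49, 3.03 and 3.25 CPM in controls and 0.486, 0.377 and 0.532 CPM in knockdowns, a log2 change of -2.80 ± 0.26 (edgeR adjusted p = 5.25e-08). No knockdown library reached a control, but each held only 11 to 14 estimated counts, against 68 to 78 in the controls. On the deposited length-scaled values, TPM, the log2(TPM + 0.5) change was -0.82. Mean TPM was 1.32 in controls and 0.540 in knockdowns, so the added 0.5 is nearly as large as the knockdown level and shrinks the change. In Hep3B BHLHE41 was read at 10.7, 8.54 and 9.78 CPM in controls and 5.08, 4.47 and 4.27 CPM in knockdowns, a change of -1.07 ± 0.13, again with no overlap.

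CLOCK (chromosome 4), the activator that BHLHE40 and BHLHE41 oppose, changed little. It stood at 14.2, 13.0 and 13.8 CPM in Huh7 controls and at 15.3, 16.4 and 15.8 CPM in knockdowns, a log2 change of 0.21 ± 0.09 (edgeR adjusted p = 0.0415). The groups did not overlap, yet the call was lost under 9 of 14 alternatives, whose adjusted p ran from 0.00494 to 0.147. Leaving out any 1 of the 3 Huh7 control libraries, or knockdown replicate 2 or 3, was enough to lose it. In Hep3B the groups overlapped, at 24.7, 18.7 and 17.9 CPM against 16.6, 20.4 and 17.4 CPM, with a change of -0.17 ± 0.13 that was 0.02 with library totals in place of TMM.

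The PER genes, whose proteins repress CLOCK and BMAL1, gave unlike values. PER1 (chromosome 17), a PER gene that also answers to hormones and stress, fell in Huh7 from 35.2, 35.7 and 32.6 CPM to 27.6, 25.9 and 29.4 CPM, a log2 change of -0.32 ± 0.07 (edgeR adjusted p = 7.98e-04). On log2(TPM + 0.5) it was -0.16 and did not pass. The Hep3B values were 24.1, 23.5 and 22.6 CPM in controls and 19.4, 19.1 and 17.8 CPM in knockdowns, also a change of -0.32 ± 0.07. PER1 was thus lower in CPM in all 6 knockdown libraries than in the controls of the same line. With library totals the changes were -0.22 and -0.13, and on TPM the groups overlapped in both lines. PER2 (chromosome 2), which with PER1 forms the core of the repressor complex, rose in Huh7 from 29.1, 23.5 and 27.0 CPM to 47.7, 45.0 and 39.7 CPM, a change of 0.73 ± 0.08 (edgeR adjusted p = 1.05e-06). In Hep3B it was read at 14.1, 11.04 and 12.3 CPM in controls and at 7.81, 8.33 and 6.39 CPM in knockdowns, a change of -0.73 ± 0.13. The PER2 groups did not overlap in either line and lay in opposite orders. How many of all genes did so was not counted. The difference between the lines was not tested, because the Hep3B contrast chose the genes.

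The CRY genes encode the light-independent cryptochromes that hold CLOCK and BMAL1 in check, and they too lay in opposite orders in the lines. CRY1 (chromosome 12) fell in Huh7 from 54.6, 50.9 and 55.0 CPM to 43.4, 43.1 and 42.8 CPM, a log2 change of -0.31 ± 0.06 (edgeR adjusted p = 1.80e-04). In Hep3B it was read at 13.7, 12.8 and 12.3 CPM in controls and at 14.7, 15.1 and 17.1 CPM in knockdowns, a change of 0.27 ± 0.09. On log2(TPM + 0.5) the Huh7 change of CRY1 was -0.04 and did not pass, and the CRY1 groups overlapped on TPM in both lines. CRY2 (chromosome 11) fell in Huh7 from 47.3, 44.6 and 45.9 CPM to 32.7, 28.2 and 31.7 CPM, a change of -0.58 ± 0.07 (edgeR adjusted p = 1.25e-06). In Hep3B it stood at 43.8, 47.4 and 46.5 CPM in controls and at 60.9, 53.6 and 57.8 CPM in knockdowns, a change of 0.32 ± 0.07. In CPM neither CRY gene had overlapping groups in either line, and the difference between lines was not tested. The share of all genes in opposite orders without overlap was not counted, so this is not read as a trait of clock genes.

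NR1D1 (chromosome 17), a receptor that represses BMAL1, fell in Huh7 from 12.2, 12.6 and 13.5 CPM to 9.97, 9.39 and 9.08 CPM, a log2 change of -0.43 ± 0.10 (edgeR adjusted p = 9.67e-04). In Hep3B it read 12.5, 12.1 and 11.4 CPM in controls and 6.35, 5.35 and 5.74 CPM in knockdowns, a change of -1.05 ± 0.11. The groups did not overlap in either line, but on log2(TPM + 0.5) the Huh7 change was -0.22 and did not pass. NR1D2 (chromosome 3), its close relative, overlapped between Huh7 groups at 23.7, 17.9 and 23.5 CPM against 22.6, 18.7 and 20.7 CPM, with a change of -0.07 ± 0.11 (edgeR adjusted p = 0.559). It passed only without Huh7 control replicate 2, at -0.20 and an adjusted p of 0.0445 in a range of 0.0445 to 0.967 over 14 alternatives, and with library totals the change was 0.03. In Hep3B, NR1D2 was read at 49.1, 41.4 and 39.5 CPM in controls and at 31.0, 36.4 and 34.6 CPM in knockdowns, a change of -0.35 ± 0.09 without overlap. There it was -0.16 with library totals and -0.15 on log2(TPM + 0.5), and the TPM ranges overlapped. DBP (chromosome 19), the output activator, rose in Huh7 from 4.16, 5.03 and 4.46 CPM to 7.90, 8.15 and 7.98 CPM, a change of 0.82 ± 0.12 (edgeR adjusted p = 2.31e-05). In Hep3B its groups overlapped, at 9.51, 12.1 and 11.7 CPM against 10.4, 10.01 and 12.9 CPM, with a change of 0.01 ± 0.13.

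The knockdown comparisons of the lines share no library. On TPM, chosen as an alternative after seeing the data, 5 of the 10 genes passed in Huh7, where 9037 of all 17022 genes tested passed.

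**Figure D2:**
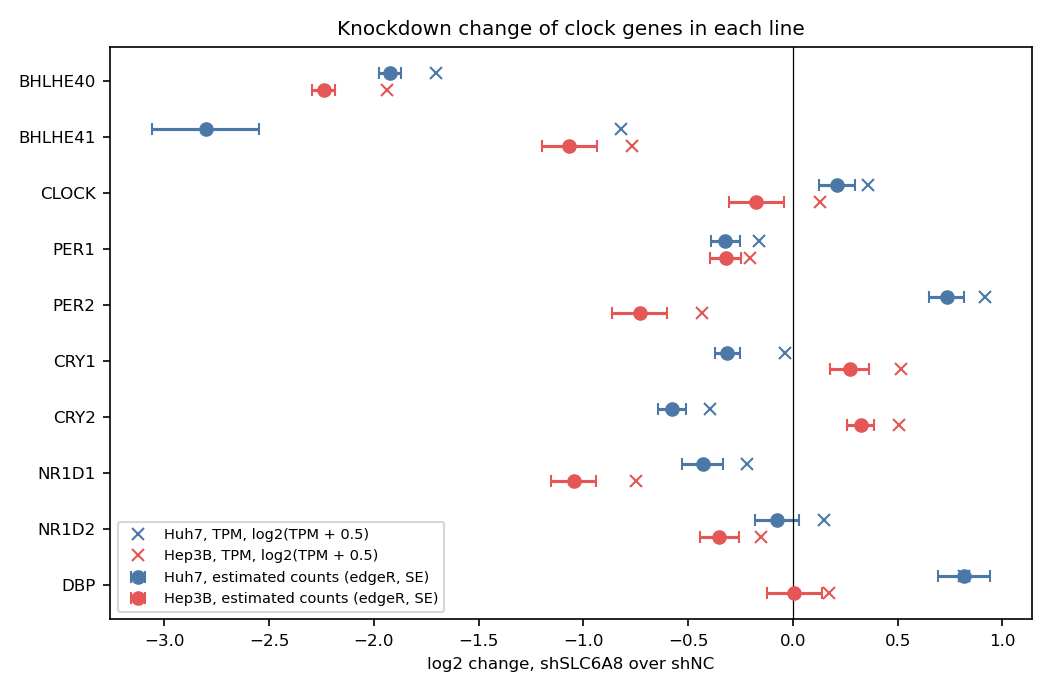
Log2 change of each gene, shSLC6A8 over shNC, by line, with circles for estimated counts (edgeR, bars are SE) and crosses for log2(TPM + 0.5). BHLHE40 lies far to the left in both lines at -1.92 and -2.24, and PER2, CRY1 and CRY2 lie on opposite sides of 0 in the 2 lines.

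Exons of other genes cover some of the 10 (GENCODE 29 annotation), and the strand setting of the counting is not given in the sources used here, so reads of overlapping genes cannot be told apart. THRA, a thyroid hormone receptor gene opposite NR1D1, went from 13.3 to 23.4 CPM in Huh7 (log2 change 0.81 ± 0.09), the opposite order to NR1D1. In Hep3B THRA went from 23.6 to 25.7 CPM, a log2 change of 0.12 ± 0.08 that did not pass. SPHK2, opposite DBP, read 10.7 and 9.68 CPM in Huh7, above DBP at 4.55 and 8.01 CPM. The Huh7 log2 change of SPHK2, -0.15 ± 0.11, did not pass. In Hep3B SPHK2 was much more abundant than DBP, at 128.7 and 168.4 CPM, a log2 change of 0.39 ± 0.05. TMEM165, opposite CLOCK, moved by -0.28 in Huh7 and 0.32 in Hep3B, against 0.21 and -0.17 for CLOCK. The antisense RNA BHLHE40-AS1 read 1.18 and 0.922 CPM in Huh7, far below BHLHE40. SSPN, opposite BHLHE41, read 1.07 and 1.35 CPM in Huh7 and 12.02 and 9.39 CPM in Hep3B, below BHLHE41 in Huh7 controls and above it in the other groups. PER2 and CRY1 overlap unnamed antisense RNAs, PER1 overlaps MIR6883 and an unnamed gene of its own strand, and CRY2 and NR1D2 overlap no gene.

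Levels were set against each other per length, on TPM. BHLHE40 was the most abundant of the 10 in both controls, at 59.6 ± 4.38 TPM in Huh7 and 66.1 ± 3.37 TPM in Hep3B (mean ± SD, n = 3), with no overlap with the next gene. In the knockdowns it was the second, at 17.9 ± 0.187 TPM behind CRY1 (23.3 ± 0.961 TPM) in Huh7 and at 16.9 ± 0.666 TPM behind CRY2 (22.3 ± 1.27 TPM) in Hep3B. Its knockdown libraries overlapped with those of the next gene, PER1 in Huh7 and DBP in Hep3B. The lowest gene was BHLHE41 in both Huh7 groups, at 1.32 ± 0.531 TPM and 0.540 ± 0.312 TPM, and PER2 in both Hep3B groups, at 2.54 ± 0.425 TPM and 1.75 ± 0.326 TPM. PER2 overlapped with its upper neighbour in both Hep3B groups. In Huh7 controls the order was BHLHE40, CRY1, PER1 and CRY2, all separate, then NR1D1, DBP, NR1D2 and PER2, whose neighbours overlapped, then CLOCK and BHLHE41, which overlapped. In Hep3B controls CRY2, DBP, PER1 and NR1D2 came after BHLHE40 with overlapping neighbours, then CRY1, NR1D1 and BHLHE41, also overlapping, and then CLOCK and PER2, again overlapping.

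**Figure D3:**
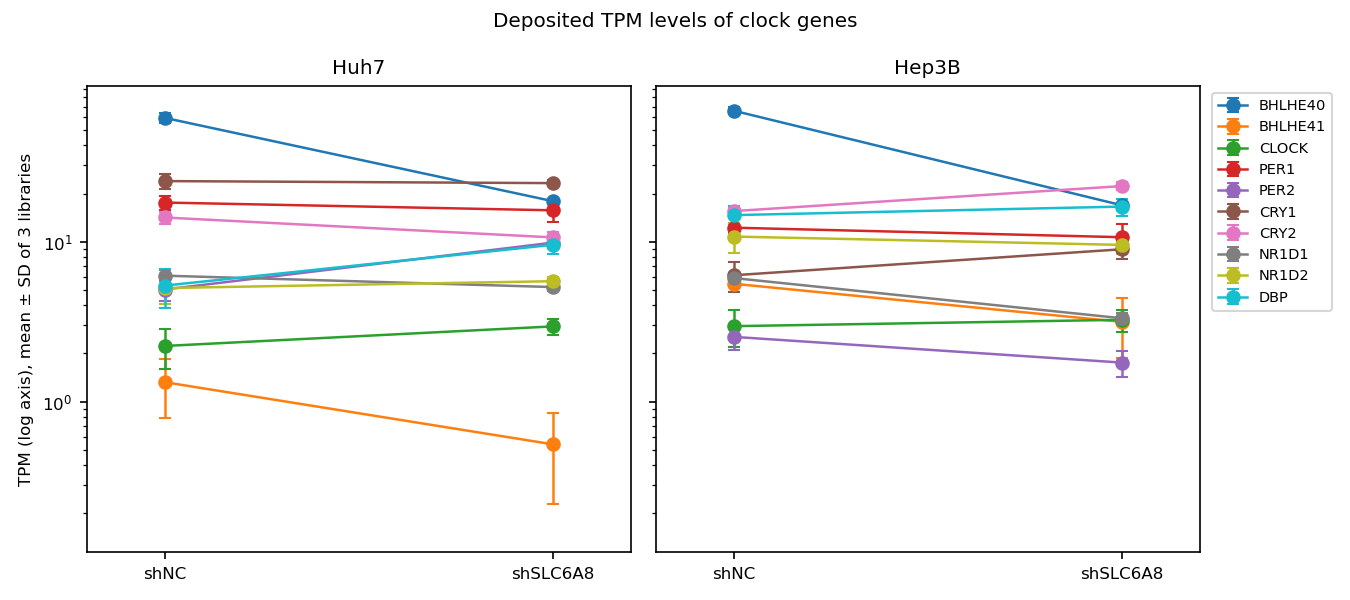
Deposited TPM (log axis, mean ± SD of 3 libraries) of the 10 genes in shNC and shSLC6A8 of each line. BHLHE40 leads both controls at 59.6 and 66.1 TPM and ends second in both knockdowns, at 17.9 and 16.9 TPM.

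The control groups of the lines were compared in 1 fit of the 6 shNC libraries, which share libraries with both knockdown comparisons. There 8 of the 10 genes passed, 5 as higher in Hep3B and 3 as lower, where 82.9% of all genes passed, 40.7% as higher and 42.2% as lower. CRY1 differed the most, at 50.5 CPM in Huh7 and 12.4 CPM in Hep3B, a log2 change of -2.03 ± 0.08 (edgeR adjusted p = 6.41e-11). PER2 was also lower in Hep3B at -1.07 ± 0.11, and PER1 at -0.54 ± 0.07. BHLHE41, DBP, NR1D2 and CLOCK were higher in Hep3B, by 1.59 ± 0.15, 1.30 ± 0.14, 1.02 ± 0.12 and 0.60 ± 0.12 on the log2 scale. The CLOCK difference did not pass on TPM. BHLHE40 differed by 0.13 ± 0.05 (edgeR adjusted p = 0.0225), a call lost without replicate 2 of either control and under 5 of 14 alternatives in all, with adjusted p from 0.0112 to 0.224. Its Hep3B control values also entered the fall that chose the set. Nothing is read from these p-values of BHLHE40 or from its place among the 8. CRY2 (0.02 ± 0.06, or -0.04 with library totals) and NR1D1 (-0.07 ± 0.10) overlapped between the controls and did not pass.

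Of 34 other clock genes in the lists, 32 were tested in Huh7, of which 8 passed as higher and 14 as lower, with a median log2 change of -0.01. In Hep3B 31 were tested, of which 1 passed as higher and 13 as lower, with a median of -0.20 against 0.01 for all genes. Of all genes, 61.8% passed in Huh7, 30.9% as higher and 31% as lower. In Hep3B 40.1% of all genes passed, 18.9% as higher and 21.2% as lower. These splits depend on scaling. With library totals in place of TMM the median of all genes moved to 0.11 in Huh7 and 0.20 in Hep3B, and the clock genes split 12 higher to 11 lower in Huh7 and 10 higher to 8 lower in Hep3B. On TPM the splits were 9 to 9 and 3 to 7. In the test of the difference between lines, 18 of 32 passed, 7 as higher in Hep3B and 11 as lower, where 47.1% of all genes passed, 23.1% as higher and 24% as lower.

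Among the activators, NPAS2, a stand-in for CLOCK, rose in Huh7 by 0.59 ± 0.08 from 23.4 to 35.3 CPM and fell in Hep3B by 0.88 on the log2 scale, from 55.5 to 30.2 CPM. RORA, the receptor that drives BMAL1 against the REV-ERBs, fell in both lines, with log2 changes of -0.96 and -0.95. BMAL1, the partner of CLOCK, had changes of -0.28 in Huh7, which did not pass (edgeR adjusted p = 0.0567) and passed at -0.33 and 0.0359 without control replicate 2, and -0.37 in Hep3B (adjusted p = 0.0191). The Hep3B call was lost under 6 of 14 alternatives, among them without control replicate 1 or 3 or knockdown replicate 1, at log2 changes of -0.32, -0.37 and -0.39, and it shrank to -0.18 with library totals and -0.10 on TPM. BMAL2, a relative of BMAL1, rose in Huh7 by 1.35, and in Hep3B its change of 0.17 did not pass but did so without control replicate 1.

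Among further repressors and feedback genes, NFIL3, which competes with DBP for the D-box, fell by 0.31 in Huh7, a call lost on TPM (-0.12), and by 1.06 in Hep3B on the log2 scale. TIMELESS, a replication gene named after a fly clock gene, rose by 0.58 in Huh7, and in Hep3B its change was 0.08 and did not pass. CIART, a repressor of CLOCK and BMAL1, fell in Huh7 from 1.36 to 0.183 CPM and was too low to test in Hep3B. NCOR1, the corepressor used by NR1D1, rose by 0.34 in Huh7, a call lost on TPM (0.16), and in Hep3B its change was -0.04 and did not pass. The D-box activators HLF and TEF, which are relatives of DBP, rose in Huh7 by 1.60 and 0.79. In Hep3B HLF fell from 23.6 to 10.9 CPM and TEF had a change of -0.41, a call lost without control replicate 3 (-0.28) or knockdown replicate 1 (-0.37), with library totals (-0.22) and on TPM (-0.16).

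**Figure D4:**
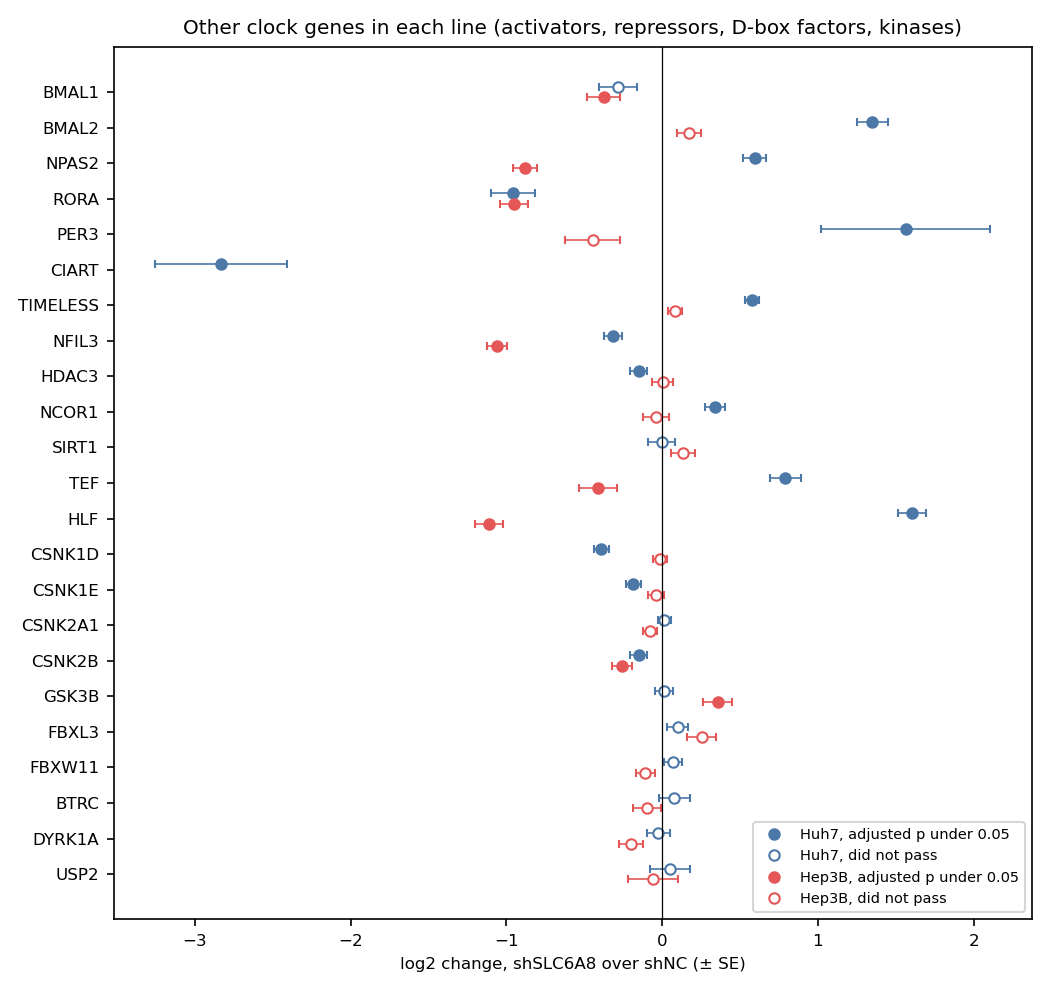
Log2 change, shSLC6A8 over shNC (± SE), of the activators, repressors, D-box factors and kinases of the clock lists in Huh7 and Hep3B, with filled points for genes that passed and open points for those that did not. HLF lies at 1.60 in Huh7 and -1.11 in Hep3B, while RORA lies near -0.96 in Huh7 and -0.95 in Hep3B.

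Of 10 clock output genes, 7 passed as lower and 1 as higher in Huh7, and 6 as lower and 0 as higher in Hep3B, where 31% and 30.9% of all genes passed as lower and higher in Huh7 and 21.2% and 18.9% in Hep3B. CDKN1A, a cell cycle inhibitor, fell by 2.66 in Huh7 and by 1.47 in Hep3B on the log2 scale. ALAS1, the first enzyme of haem synthesis, and NOCT, a phosphatase with a strong daily rhythm in liver, fell by 1.17 and 1.16 in Huh7, and neither passed in Hep3B (-0.04 and -0.30). WEE1, a kinase that delays mitosis, had a change of 0.11 in Huh7, which did not pass but did so with library totals (0.21), and fell by 0.64 in Hep3B on the log2 scale. PPARA, the liver fatty acid receptor, rose by 0.30 in Huh7 and fell by 0.63 in Hep3B on the log2 scale, and both calls were lost on TPM (0.22 and -0.21). NAMPT, which makes the cofactor NAD, fell by 0.39 in Huh7 and by 0.27 in Hep3B, calls lost on TPM (-0.18 and -0.07) and, in Hep3B, with library totals (-0.08). CSNK1D, the kinase that marks PER proteins for decay, fell by 0.39 in Huh7 and did not pass in Hep3B (-0.01), and 3 and 2 of the 10 kinases and ubiquitin ligases passed in the lines. With library totals, BMAL2, TIMELESS, CSNK1D and ALAS1 passed as higher in Hep3B, at 0.36, 0.28, 0.18 and 0.15.

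Of 5 genes listed as repressed by BHLHE40, 2 passed as higher and none as lower in Huh7, and 1 as higher and 3 as lower in Hep3B. Of all genes, 30.9% passed as higher and 31% as lower in Huh7, and 18.9% and 21.2% in Hep3B. The list comes from general knowledge of other cells, and nothing is read from counts among so few genes. The Huh7 call of PPARG, an adipose receptor (0.18), was lost under 10 of 14 alternatives, among them without control replicate 1 or 3 or any 1 knockdown library, with changes of 0.15 to 0.29 over all 14. The Huh7 change of ID1, an inhibitor of bHLH proteins (0.16), did not pass but did so under 8 of 14, among them without control replicate 2 or knockdown replicate 2 or 3, with changes of 0.10 to 0.36 over all 14. In Hep3B ID1 rose by 1.22, while PPARG and PPARGC1A, a mitochondrial coactivator, fell by 0.97 and 0.99. Of the related HES and HEY repressors, 2 of 6 passed as lower in Huh7 and 3 of 6 as higher in Hep3B. HES4 had a change of -1.27 in Huh7 and 1.71 in Hep3B, the latter with an adjusted p of 0.07 when no filter was used.

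HIF subunits and targets are given beside BHLHE40 because it is a HIF target. Of 12 other HIF targets, 11 passed as lower in Huh7 and 12 in Hep3B, with medians of -1.58 and -1.33, where 31% and 21.2% of all genes passed as lower. The BHLHE40 changes of -1.92 and -2.24 lay inside the range of those targets, -3.84 to -0.22 in Huh7 and -2.81 to -0.39 in Hep3B. Of the subunits, HIF1A rose by 0.35 and EPAS1 by 0.28 in Huh7. In Hep3B EPAS1 fell by 1.03 and HIF3A by 1.94 on the log2 scale, and HIF1A had a change of -0.26. That HIF1A call was lost under 6 of 14 alternatives, among them without control replicate 1 (-0.21) or 2 (-0.28) or knockdown replicate 1 (-0.21) or 3 (-0.22), and it shrank to -0.07 with library totals and -0.03 on TPM.

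The genes whose pattern lay nearest to BHLHE40 over the 12 libraries were ranked among 11972 genes by the mean absolute difference of log2 CPM centred on each gene's own mean. They were TNS1, a focal adhesion protein, at 0.141, HCAR3, a hydroxy-acid receptor, at 0.211, DDIT4, an mTOR inhibitor, at 0.293, and TNFRSF10D, a decoy death receptor, at 0.300. Next came ADM, a vasodilator peptide, at 0.313, PDK1, a brake on pyruvate dehydrogenase, at 0.344, BNIP3, a mitophagy receptor, at 0.369, and CD68, a lysosomal protein, at 0.384. HCAR3 is nearly identical to HCAR2 and may share its reads. DDIT4, ADM, PDK1 and BNIP3 were on the HIF target list, and 6 of the 8 were also among the 8 nearest on TPM. Only genes with a mean log2 CPM of at least 1 in each line were ranked. That left out BHLHE41, whose Huh7 mean was 0.886. Of the remaining genes of the set, the nearest was NR1D1, at rank 196 and 0.673, and the farthest was DBP, at rank 10118.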

How the data were processed

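Messenger RNA of 12 hypoxic libraries was analysed from 1 deposited table per line. Each gene has, per the file headers, 1 estimated count and 1 TPM for every library. Also deposited, per the file headers, are the authors' fold change (a ratio), the log2 of it, and a p-value. The submitters' processing notes list the build GRCh38.p14. Not given in the sources used here are the aligner, the counter, the strand setting and the tool of the comparison. Other columns of sample values numbered 0.

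Estimated counts were rounded. With edgeR 4.0.16 (R 4.3.3), filterByExpr removed low genes, TMM set the scale, and the quasi-likelihood F test (robust option) gave p-values. These were adjusted by Benjamini-Hochberg over all genes tested, with 0.05 as threshold. Each line was fitted alone, the 6 shNC libraries together for the lines, and 12 libraries for the difference between lines. SE is the absolute log2 change over the square root of F and approximate. A prior count of 2 went into log2 CPM. Steps were tested on simulated counts. Depth ran from 21065965 to 28078068 estimated counts. Every pair of replicates differed by more than sampling noise.

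The members, gene lists and tests were chosen with earlier results of these data known. Named genes were the 10 members and SLC6A8, measured members of the activator, repressor and D-box lists, from every list the 3 lowest adjusted p of each line and direction, and the 8 genes most like BHLHE40. Some were left out for length, and some picked genes are not reported here. Lists held other clock genes, genes repressed by BHLHE40, HES and HEY relatives, HIF subunits and targets, inducers of PER1, and markers of hepatocytes and other cells. Of 8 inducers of PER1, 3 passed as higher and 3 as lower in Huh7, and 2 and 4 in Hep3B. The shares of all genes were 30.9% and 31% in Huh7, and 18.9% and 21.2% in Hep3B. Alternatives were DESeq2 1.42.0, its size factors, library totals, other filters, no robust option, a replicate block and leaving out each library. The test of TPM with limma 3.58.1 at a pseudocount of 0.5 was chosen after seeing the data. Promoters and coordinates came from RefSeq, and overlaps of exons from GENCODE 29.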

Additional observations from a re-analysis of the deposited data

Results flagged for a closer look

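PER2, CRY1 and CRY2 lay in opposite orders in the lines in CPM, with no overlap between hairpin groups in either line. The log2 changes in Huh7 and Hep3B were 0.73 and -0.73 for PER2, -0.31 and 0.27 for CRY1, and -0.58 and 0.32 for CRY2. On TPM the CRY1 groups overlapped in both lines and its Huh7 change was -0.04, which did not pass. The difference between the lines was not tested for these 3 genes. How many of all genes lay in opposite orders without overlap was not counted. The pattern is therefore not read as a trait of clock genes. Of all genes, 47.1% passed the test of the difference between lines.

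For 27 genes outside the set, the difference of the knockdown change between lines (Hep3B minus Huh7, log2) was tested in 1 fit of 12 libraries, and 21 passed with edgeR adjusted p from 2.65e-11 to 0.0168, where 47.1% of all genes passed. The rule that named these genes drew on their changes in each line, so the count is not to be read against that share. In the clock lists, the difference was -1.17 for BMAL2, -1.47 for NPAS2, -2.01 for PER3, -0.49 for TIMELESS, -0.74 for NFIL3, -0.37 for NCOR1, -1.20 for TEF and -2.71 for HLF. PER3, a further PER gene, was at 0.0417 to 0.268 CPM in Huh7 controls. NCOR1 did not pass with library totals. Among kinases and outputs it was 0.38 for CSNK1D, 0.86 for NOCT, -0.75 for WEE1, 1.14 for ALAS1, -0.93 for PPARA and 1.19 for CDKN1A.

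Among genes repressed by BHLHE40 and the HES genes the difference was -1.15 for PPARG, -1.33 for PPARGC1A, 1.06 for ID1 and 2.99 for HES4. For HIF subunits it was -0.61 for HIF1A, -1.31 for EPAS1 and -3.62 ± 0.71 for HIF3A. HIF3A was too low to test in Huh7 alone. In the fit of the control groups it was at 0 to 0.197 CPM in Huh7, so its difference rests on values near the floor.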

How the results depend on the processing

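On TPM with limma, 5 of the 10 members passed in Huh7, against 9 on counts, and the cause was not tested. Of all 17022 genes tested in Huh7, 9037 passed on TPM and 10525 on counts. In Hep3B 5 passed on TPM and 8 on counts, from which nothing is read, since that contrast chose the members. Of all 16181 genes tested there, 6427 passed on TPM and 6488 on counts. Under all other alternatives the counts of members, clock genes and all genes called stayed within 1.5 times. Leaving out each library in turn gave 8 to 9 members called in Huh7 and 7 to 8 between controls. The clock lists gave 19 to 22 calls in Huh7, 12 to 15 in Hep3B and 18 to 20 for the difference between lines. Over all genes the calls ran from 9722 to 10508 in Huh7, from 4905 to 6513 in Hep3B and from 14128 to 14445 between controls. Member changes kept their direction in 137 of 140 recomputed values in Huh7 (NR1D2 turned), 136 of 140 in Hep3B (CLOCK and DBP turned) and 137 of 140 between controls (CRY2 turned). With library totals, 59.7% of Huh7 calls and 76.2% of Hep3B calls were higher, against 49.9% and 47.2% with TMM. BHLHE41 in Huh7 rests on the fewest counts of the set.

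Same-numbered libraries did not deviate together, with correlations from -0.0647 to 0.0515, so the numbers were not taken as pairs. With the replicate number as a block, 8 members passed in Huh7 and 8 between controls. The block left 20 and 14 clock genes called in Huh7 and Hep3B, 18 for the difference between lines, and 10125, 6221 and 14182 of all genes in Huh7, Hep3B and between controls.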
